A study of Mus musculus with 15 samples.

Results

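The prolactin family of the mouse comprises prolactin itself and a large group of related hormones made mainly by the placenta. The members were selected on measured expression: Prl2c5, Prl4a1 and Prl7d1 were picked because their RNA was much higher in one line, and the rest of the family was added by name. A probe belonged to the family when its name was one of those 3, or began with Prl, Prlp or Plf and was described as prolactin family or proliferin. The receptor and the releasing hormone were left out. On the expression arrays 17 of 41174 probes met these words. A further 10 probes carry older names and were added because their RefSeq accession now names a prolactin family gene, so 27 probes of 23 genes were followed, among 17989 named genes with an expression probe. On the promoter arrays all 112 family probes, of 21 genes, lay on part 2, which holds 40284 probes, and none of the 40283 probes of part 1 belonged to the family. RefSeq lists 26 family genes. Each family probe was assigned to a single gene, although some expression probes list transcripts of several near copies. By that assignment, 20 of the 26 genes had probes in both assays. Prl2c3, Prl3b1 and Prl7b1 had expression probes alone, Prl3d3 had promoter probes alone, and Prl2c1 and Prl2c2 had neither. Which proliferin copy the promoter probes named for Prl2c5 tile is uncertain, as described below.

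The study set J1, wild-type embryonic stem (ES) cells of the mouse, against TKO, mouse ES cells deficient in DNA methylation because they lack the DNA methyltransferases Dnmt1, Dnmt3a and Dnmt3b. Both were grown without feeder cells for 2 passages before harvest, in medium with 15% serum and LIF. Methylated DNA was immunoprecipitated (MeDIP) out of 2 ug of DNA per line. Both lines were hybridised together to a promoter array split into parts 1 and 2, on 7 arrays each. The passage number is recorded only for replicates 1 and 3 of part 1, and it is the same for both. Whether the other arrays came from different passages cannot be told from the sample records. RNA of both lines was compared on 3 expression arrays, with the dyes exchanged on replicate 2. The 3 expression arrays are deposited together as 1 sample and were taken here as replicates. An array carries both lines, and its log ratio counts as 1 replicate; the number of arrays limits the precision. Only 1 line of each genotype was studied, and the spread between arrays does not cover the spread between lines.

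In rodents the placental prolactin genes lie side by side in a cluster that expanded by duplication, and trophoblast giant cells, spongiotrophoblast and labyrinth cells each secrete their own members. Placental lactogens act through the prolactin receptor, whereas many other members have receptors or targets of their own. In DNA methylation, a methyl group is added to cytosine mainly where it stands before guanine (CpG), and MeDIP recovers fragments that carry it.

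RefSeq (GRCm38.p6) places all 26 genes on chromosome 13. Prl2c3, Prl2c2 and Prl2c5 lie between 12790816 and 13191930, and the other 23 between 27057570 and 28151595. Promoter sequences, from 250 bases before to 50 bases after the start, were at hand for 22 of the genes. The 3 members chosen on expression are shown first, followed by Prl7c1 and Prl6a1, the promoters farthest from 0 in MeDIP. Each is written from 5′ to 3′ on its own strand, with the CpG dinucleotides, the sites that MeDIP depends on, in capitals.
Prl2c5 (chr13:13182466-13182765, plus strand): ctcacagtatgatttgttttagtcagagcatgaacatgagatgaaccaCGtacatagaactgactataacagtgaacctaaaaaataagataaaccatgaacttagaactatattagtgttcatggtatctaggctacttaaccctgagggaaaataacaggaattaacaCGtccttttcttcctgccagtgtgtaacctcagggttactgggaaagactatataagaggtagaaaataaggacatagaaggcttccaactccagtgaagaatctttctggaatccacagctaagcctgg
Prl4a1 (chr13:28015962-28016261, plus strand): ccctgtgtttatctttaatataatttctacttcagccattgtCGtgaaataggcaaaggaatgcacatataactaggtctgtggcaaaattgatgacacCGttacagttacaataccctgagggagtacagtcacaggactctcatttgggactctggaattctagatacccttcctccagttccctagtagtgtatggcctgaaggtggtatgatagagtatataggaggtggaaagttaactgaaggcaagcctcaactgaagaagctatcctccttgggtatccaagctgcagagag
Prl7d1 (chr13:27716688-27716987, minus strand): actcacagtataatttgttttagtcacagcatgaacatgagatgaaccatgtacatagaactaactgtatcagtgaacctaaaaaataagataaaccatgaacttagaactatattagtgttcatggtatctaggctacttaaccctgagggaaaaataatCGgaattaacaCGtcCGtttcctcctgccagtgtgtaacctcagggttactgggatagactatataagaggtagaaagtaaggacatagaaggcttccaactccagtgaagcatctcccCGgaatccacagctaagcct
Prl7c1 (chr13:27780755-27781054, minus strand): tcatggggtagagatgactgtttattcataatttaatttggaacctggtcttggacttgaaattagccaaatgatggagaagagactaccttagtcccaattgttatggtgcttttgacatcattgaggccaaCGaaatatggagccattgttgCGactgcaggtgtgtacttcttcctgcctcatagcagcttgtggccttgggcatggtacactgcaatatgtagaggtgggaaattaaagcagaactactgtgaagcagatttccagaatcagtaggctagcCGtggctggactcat
Prl6a1 (chr13:27312365-27312664, plus strand): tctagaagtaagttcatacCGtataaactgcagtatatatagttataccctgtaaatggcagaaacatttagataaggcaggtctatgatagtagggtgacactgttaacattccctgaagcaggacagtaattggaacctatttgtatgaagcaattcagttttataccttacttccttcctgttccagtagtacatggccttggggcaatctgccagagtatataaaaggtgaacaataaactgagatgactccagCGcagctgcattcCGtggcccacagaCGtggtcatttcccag

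These promoters hold few CpG. Prl2c5 and Prl4a1 have 2 each, Prl7c1 has 3, and Prl7d1 and Prl6a1 have 4. Over the 22 family promoters the count ran from 0 in Prl3c1 to 5 in Prl2b1 with a median of 2, against a median of 7 over 27025 genes with a sequence. Their GC content had a median of 40.5%, against 52.7% over all genes. Members resemble each other to very different degrees. The Prl2c5 and Prl7d1 promoters were identical at 282 of 298 aligned bases (94.6%), Prl2c3 and Prl2c5 at 96%, and Prl3d2 and Prl3d3 at 99.7%, whereas the median over all 231 pairs was 62.2%. A hybridisation probe to one of these near copies can also capture DNA or RNA of another.

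Short motifs of trophoblast and core promoters were then searched on both strands. The AP-1 motif TGANTCA occurred in 9 of 22 family promoters (40.9%) and in 7.93% of all promoters of the same length. The GATA-type motif AGATAA also occurred in 9 of 22, against 11.4% of all, and TATAAA in 5 of 22 (22.7%), against 14.2%. Prl2c5 and Prl4a1 each hold 1 AGATAA match and no TGANTCA, as does Prl7d1. The AGATAA matches of Prl2c3, Prl2c5 and Prl7d1, at −163, −163 and −162, lie in near-identical sequence and are not independent. The same holds for the TGANTCA matches of the near copies Prl3d1, Prl3d2 and Prl3d3. The family promoters have a lower median GC content than all promoters, and the shares were not matched for base composition. A match is a run of letters and does not show binding.

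Expression is given as log2(TKO/J1) after background correction (normexp, offset 50, which pulls ratios of dim probes towards 0) and loess. The labels allow either dye order for the RNA arrays. J1 in Cy5 on replicates 1 and 3 and in Cy3 on replicate 2 was taken as the likely order, from the order of the labels and from the methyltransferase genes, which then read lower in TKO (Dnmt3b −2.51 ± 0.19, SD, n = 3). On replicate 3, 8386 spots were marked uneven by the scanner software and left out, which removes several bright family spots from that array. Processed signals below are in scanner intensity units and are compared between lines, for 1 probe or for the sum over 1 list of genes, and never between probes.

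Prl4a1, also called prolactin-like protein A, a trophoblast hormone that acts on uterine natural killer cells, gave processed signals of 2512, 1525 and 3292 in TKO and 65.3, 50.1 and 207 in J1 on replicates 1 to 3. Every TKO value lay above every J1 value, and the J1 channel was not well above background on any array. Its log2(TKO/J1) was 2.30, 1.57 and 2.27, with a mean of 2.05 ± 0.42 (SD, n = 3). Measured from the lowest signal that counts as above background, TKO was at least 3.93-fold higher. This bound sets the mean TKO level against, on each array, the higher of the J1 probe's own value and the lowest well-above-background signal, in log2 values scaled between arrays.

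Prl7d1, proliferin-related protein, a trophoblast hormone known for restraining blood vessel growth, gave 1163, 1080 and 3057 in TKO and 60.2, 61.2 and 163 in J1. The lines did not overlap, and J1 was not well above background on any array. The log2(TKO/J1) values were 1.51, 1.20 and 2.20 (mean 1.64 ± 0.51, SD, n = 3), and the bound was at least 2.93-fold. Replicate 3 gave the highest ratio here and replicate 2 the lowest.

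Prl2c5 belongs to the proliferins, growth factors of trophoblast giant cells that promote vessel growth. Its first probe (A_52_P619248), which lists the Prl2c5 transcript alone, gave 6377, 6976 and 3181 in TKO and 259, 281 and 228 in J1. Whether this probe also captures RNA of near copies was not tested. The log2(TKO/J1) of this probe was 3.07 and 2.96 on replicates 1 and 2, with its spot uneven on replicate 3. The second probe (A_52_P511450) also lists transcripts of other proliferin copies. It gave 2918, 3317 and 1892 in TKO and 140, 119 and 138 in J1, log2 ratios of 2.34 and 2.29, and a bound of at least 4.87-fold. Both probes show TKO above J1 on every array. The second one cannot tell copies of this subfamily apart, and for the first one this is not known.

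The Prl2c3 probes, for the neighbouring proliferin, list more than 1 proliferin transcript each. One (A_52_P84814) gave log2(TKO/J1) of 2.35 and 2.22 on the 2 arrays with an even spot. Another (A_51_P312779) gave 1.65, 1.15 and 1.03, and the third (A_51_P312780) 0.36, 0.22 and 0.32 with TKO well above background on 1 array. The 3 probes thus disagree in size. All 3 lay above 0 on each array measured.

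Prl2a1, prolactin-like protein M, gave 2894, 2344 and 1889 in TKO and 63.1, 50.8 and 99.4 in J1, with log2 ratios of 2.45 and 2.02 on replicates 1 and 2 and a bound of at least 4.44-fold. Its J1 channel was not well above background on any array. Prl3d1, placental lactogen I, which takes over from pituitary prolactin in early pregnancy by acting on the prolactin receptor, was above background in both lines. It gave 2766, 2795 and 2859 in TKO and 487, 250.3 and 292 in J1, or log2 ratios of 1.69, 1.88 and 1.85 (mean 1.81 ± 0.10, SD, n = 3). The Prl3d2 probe, which also lists transcripts of Prl3d1 and Prl3d3, gave 1836, 1922 and 3887 in TKO against 170, 185 and 713 in J1, with log2 ratios of 1.72, 1.56 and 1.66. Prl3d1 and this probe are the only family probes with J1 well above background on all 3 arrays.

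Prl7a1, prolactin-like protein E, gave 604, 504 and 542 in TKO and 64.2, 53.6 and 93.2 in J1, with TKO well above background on 2 arrays and log2 ratios of 0.89, 0.79 and 0.65. Its bound was at least 1.61-fold. Prl5a1 gave 0.19, 0.26 and 0.26 with TKO above background on 1 array. Prl3b1, placental lactogen II, gave −0.06, 0.02 and 0.04 with J1 above background on 2 arrays and TKO on 1.

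Among the 27 probes, 13 were not well above background in either line on any array. They include Prl, the pituitary hormone, both Prl2b1 probes, Prl6a1, Prl7a2, Prl7b1, Prl7c1 and 4 members of the Prl8a group, among them Prl8a2, the decidual prolactin-related protein. No fold is given for these. Where J1 was not above background on any array, as for Prl2a1, Prl4a1, Prl7d1, Prl7a1 and the second Prl2c5 probe, the ratio is a lower bound and has no place in an order. Of the probes measured in both lines on 2 or more arrays, Prl2c5 (A_52_P619248) had the highest ratios, followed by Prl2c3 (A_52_P84814). The values of Prl3d1, Prl3d2 and Prl2c3 (A_51_P312779) came next, and those of Prl3d1 and Prl3d2 overlap over arrays.

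**Figure D1:**
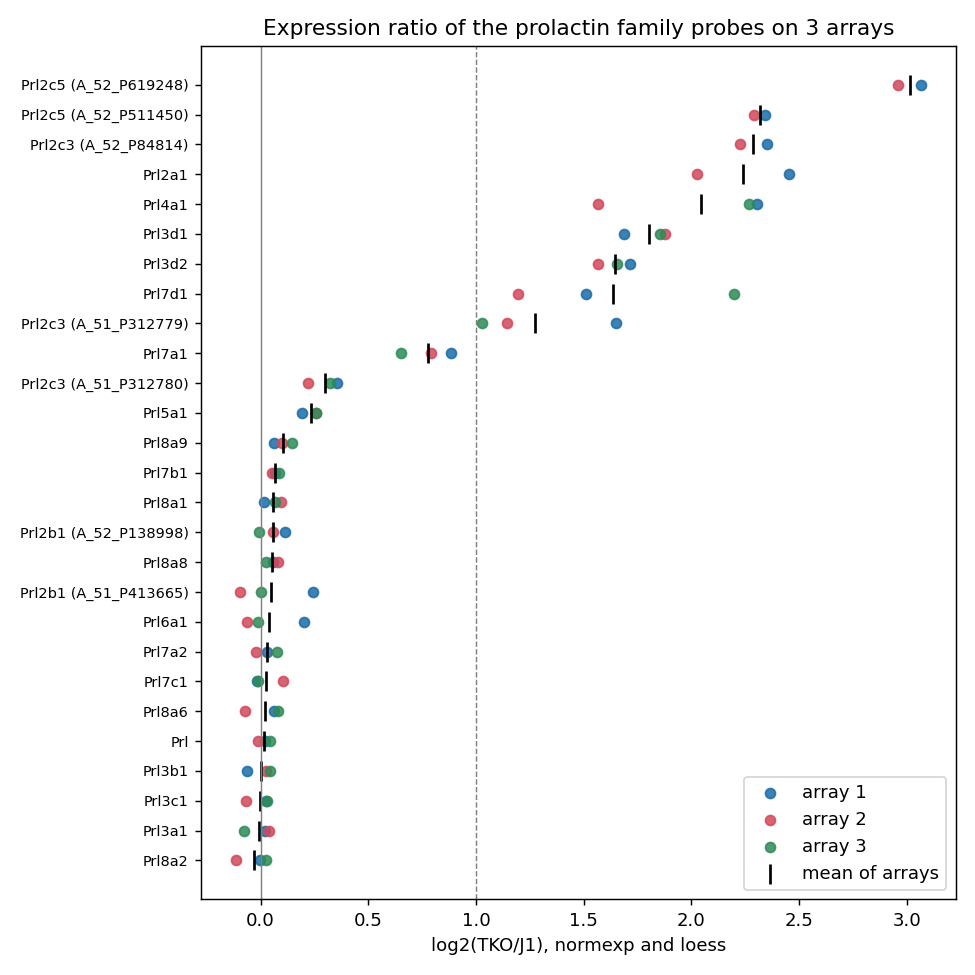
Log2(TKO/J1) of each of the 27 family probes (horizontal axis) on each expression array, with 1 row per probe, points for arrays and a bar for the mean; the dashed line marks a log2 ratio of 1. Prl2c5, Prl2c3, Prl2a1, Prl4a1, Prl3d1, Prl3d2 and Prl7d1 have probes above 1 on every array measured, and most other probes lie near 0.

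Of the 27 family probes, 6 were well above background in TKO on all 3 arrays and 2 in J1, against 36% and 37.8% of all 41174 probes. Of the family, 4 probes were above background in TKO on all arrays and in J1 on none, a pattern shared by 73 probes on the whole array. The filter on dim probes (well above background in J1 or in TKO on all 3 arrays) left 6 family probes, and all 6 were at least 2-fold higher in TKO at an adjusted p under 0.05 with limma. Across the 16070 probes tested, 1.36% passed that rule as higher in TKO and 0.61% as lower. The members were chosen on this contrast and most passed the filter through the TKO channel, so nothing is read from their count. Probes A_52_P619248 of Prl2c5 and A_52_P84814 of Prl2c3, missed the filter because of replicate 3. Over those 6 probes the median log2(TKO/J1) was 1.93 (4.40 with Agilent's own processed ratios), and over the 27 family probes without the filter it was 0.068. The median over all tested probes was −0.00. The filter and the choice of members set the first of these values, which is given as a description.

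**Figure D2:**
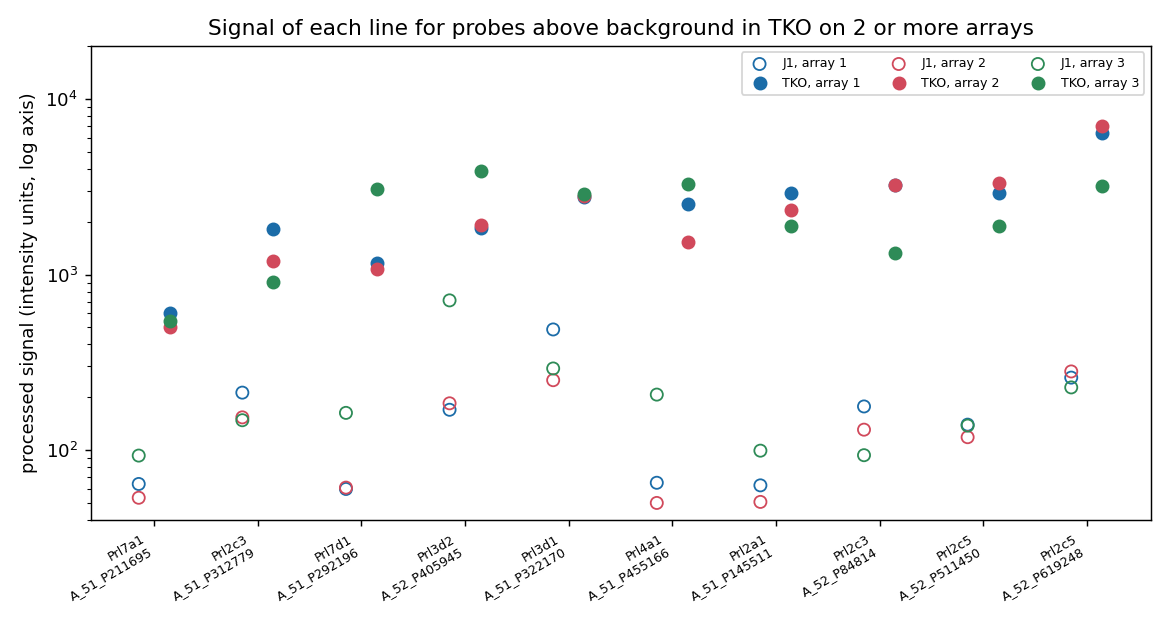
Processed signal in intensity units on a log axis for the 10 family probes above background in TKO on 2 or more arrays, with open points for J1 and filled points for TKO, coloured by array. For each probe all TKO points lie above all J1 points; levels of different probes are not comparable.

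Genes whose ratios lay closest to the 3 chosen members were found by the Euclidean distance of log2(TKO/J1) over the arrays on which the member was measured. For Prl2c5, over 2 arrays and 9538 candidate genes, these were Krt8, a keratin of simple epithelia, at 0.126, Srgn, a secretory granule proteoglycan, at 0.497 and Rhox2a, a homeobox gene, at 0.582. For Prl4a1, over 3 arrays and 5961 candidates, they were Tex13b at 0.388, and Prss12, a serine protease, and Magea3, both at 0.442. For Prl7d1 they were Rbp4, the plasma retinol carrier, at 0.442, St3gal1, a sialyltransferase, at 0.511 and Tex13b at 0.548.

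Other genes that trophoblast secretes or needs were examined by lists. The lists were chosen with earlier results of these data known. The filter on dim probes also admits genes that are bright in TKO alone, so the counts are given as descriptions. Of 32 listed trophoblast secretory and labyrinth genes with a probe, 7 could be tested and all 7 were higher in TKO at an adjusted p under 0.05 (limma, brightest probe per gene), with a median log2 ratio of 1.43. Of these 7, 6 were also well above background in J1 on every array. Over the 9553 genes tested, 17.9% were higher and 15.6% lower, with a median of 0.00. The largest changes were in the homeobox genes Rhox6 (2.38 ± 0.13, SD, n = 2 arrays; adjusted p = 3.24e-06) and Rhox9 (2.29 ± 0.10, n = 3; 7.03e-07), Cdkn1c, a cell cycle inhibitor (1.81 ± 0.12, n = 2; 1.05e-05), and Plac1, a placental surface protein (1.43 ± 0.37, n = 3; 4.58e-05). None of the 7 tested genes is a placental cathepsin or a pregnancy-specific glycoprotein, so the median does not describe those. Of the genes not tested, 11 were above background on too few arrays to be tested and 14 on none in either line. The 14 include Ctsm, Ctsq and Ctsr, placental cathepsins, Psg16, Psg18, Psg22 and Psg23, pregnancy-specific glycoproteins, and Synb, a syncytin. The list's summed processed signal ran from 25460 to 33564 in J1 and from 106350 to 132450 in TKO.

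Of the trophoblast regulators, 16 of 24 with a probe were tested, 8 were higher and 3 lower, with a median of 0.37. Cdx2, Eomes, Elf5, Hand1 and Ascl2 were not among those tested. The lower ones were Bhlhe40 (−0.63 ± 0.15, SD, n = 2, adjusted p = 0.00294 with limma), Esrrb (−0.45 ± 0.06, n = 2, 0.011) and Sox15 (−0.44 ± 0.08, n = 2, 0.0134). Gata3, a GATA factor of trophoblast (2.01 ± 0.27, SD, n = 2; adjusted p = 1.15e-05), Cited1 (1.85 ± 0.10, n = 2; 8.56e-06) and Cited2 (1.30 ± 0.12, n = 2; 5.83e-05), both transcriptional co-regulators, rose most, and Jund, an AP-1 subunit, rose by less (0.94 ± 0.05, n = 2; 0.000297). In the list of the prolactin receptor and its signalling, 9 of 13 genes were tested. The receptor gene itself, Prlr, was not among them. Of the 9 tested, 6 were higher and 2 lower, with a median of 0.33 and none at 2-fold. Ghr, the growth hormone receptor (0.73 ± 0.10, n = 3; 0.000228), Akt1, a kinase (0.70 ± 0.23, n = 2; 0.00259), and Igf2r, to which proliferin can bind (0.60 ± 0.24, n = 3; 0.00193), rose, and Socs2, a feedback inhibitor of this signalling, fell by 0.37 on the log2 scale (adjusted p = 0.0111). Among the 5 tested genes that flank the main cluster, 2 rose, Mrs2 (0.77 ± 0.03, n = 2; 0.000809) and Mboat1 (0.41 ± 0.06, n = 2; 0.0175), and none was 2-fold higher.

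Markers of other cells moved as well, and their lists carry the same limits of choice and filter. Over all genes tested, 17.9% were higher in TKO and 15.6% lower at an adjusted p under 0.05 (limma). All 8 tested primitive endoderm genes, of 11 with a probe, were higher, and 7 of the 8 were also well above background in J1 on every array. Among them were Afp (3.86 ± 0.25, SD, n = 2; adjusted p = 7.03e-07), Dab2, Col4a1 and Gata6. The summed signal of that 11-gene list ran from 42360 to 54912 in J1 and from 96794 to 119820 in TKO. No gene of that list was below background on every array. All 4 tested feeder fibroblast genes, of 11 with a probe, were higher, namely Ccn1 (1.57 ± 0.02, n = 2; 1.81e-05), Lox, Col1a2 and Col1a1. Another 6 were above background on some arrays but were not tested. The feeder fibroblast list summed to between 23715 and 27196 in J1 and between 42777 and 69621 in TKO, with Lum never above background. ES cell genes were detected in both lines, with 0 of 6 higher (1 at an unadjusted p under 0.05) and 4 lower. These were Tdh, a threonine dehydrogenase (−1.05 ± 0.05, SD, n = 2; adjusted p = 0.00016), Sox2 (−0.82 ± 0.13, n = 3; 0.000137) and Pou5f1 (−0.72 ± 0.14, n = 2; 0.0015), both pluripotency factors, and Esrrb, a nuclear receptor (−0.45 ± 0.06, n = 2; 0.011). Of 8 pituitary genes 3 were tested and none changed at an adjusted p under 0.05 (limma). The unadjusted p was under 0.05 for 0 of them. The pituitary defining genes Gh, Pou1f1 and Tshb were never above background. The part of these cell types in the family's ratios was not tested, and in bulk RNA more cells of a type cannot be told apart from more RNA per cell.

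Promoter MeDIP was not used to choose the members and was tested. The ratio is log2(J1/TKO) of processed signals as the dyes are labelled, with Cy3 for J1 and Cy5 for TKO on each of the 7 arrays, centred on each array's median. No array has the dyes exchanged, so dye and line cannot be told apart, and values below 0 are described as lying on the labelled TKO side. A promoter was all probes of 1 transcript with gaps of at most 2000 bp and at least 3 probes. Its value was the mean over probes, tested against 0 with limma and adjusted over 14474 promoters. Of the 21 family promoters, 17 were on the labelled TKO side at an adjusted p under 0.05, and 0 were on the labelled J1 side, also at an unadjusted p under 0.05. Over all promoters 31.1% and 25.8% were. The 17 include near copies, such as Prl8a9 and Prl8a1 (84.1% identical in the promoter window), and are not all independent. The median family ratio was −0.34, against −0.00 over all, but with normexp background correction it was 0.13, on the other side of 0, with 2 promoters past the adjusted p on the labelled TKO side (14.2% of all promoters under that correction) and 0 on the other. Under normexp the family median was 1.03 on replicate 5 and ran from −0.30 to 0.25 on the other arrays. Without replicate 5 the normexp median was −0.029.

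The largest ratios belonged to Prl7c1, prolactin-like protein O, whose RNA was not detected in either line. Its 7 arrays ran from −1.09 to −0.66 with a median of −0.96, and its mean was −0.89 ± 0.18 (SD, n = 7; adjusted p = 4.37e-06), rank 16 from the lowest of 14474 promoters. Prl6a1, prolactin-like protein B, ran from −0.82 to −0.53 with a median of −0.78 (mean −0.71 ± 0.11; adjusted p = 3.78e-06). Prl7d1 ran from −0.72 to −0.43 with a median of −0.53 (mean −0.55 ± 0.10; adjusted p = 5.35e-06). Each lay below 0 on all 7 arrays. These 3 alone among the family were past 0.5 from 0, which 2.6% of all promoters were on that side. Under normexp Prl7c1 (−0.63 ± 0.16; adjusted p = 0.000133) and Prl7d1 (−0.23 ± 0.17; 0.0172) kept their side and passed, while Prl6a1 was at −0.08 ± 0.43 (0.704). Prl6a1 then lay below 0 on 5 of 7 arrays, with a highest value of 0.81.

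Among the members chosen on expression, Prl2c5 ran from −0.53 to −0.19 with a median of −0.33 (mean −0.35 ± 0.12, SD, n = 7; adjusted p = 7.43e-05). Prl4a1 ran from −0.63 to −0.14 with a median of −0.28 (mean −0.34 ± 0.21; adjusted p = 0.001). Both lay below 0 on all 7 arrays, and neither passed under normexp (−0.05, adjusted p = 0.759, and 0.13, adjusted p = 0.544). The probes named for Prl2c5 lie on the array between those of Prl2a1 and Prl4a1, where the RefSeq order has Prl2c1 and not Prl2c5, so which proliferin copy they tile is uncertain.

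The promoters of the other members with RNA well above background in TKO lay closer to 0 than that of Prl7d1. Prl3d1 ran from −0.78 to 0.13 with a median of −0.20 (mean −0.33 ± 0.36; adjusted p = 0.019) and Prl3d2 from −0.88 to 0.09 with a median of −0.26 (mean −0.32 ± 0.40; adjusted p = 0.0313). Prl3d3, with no expression probe assigned to it, was at −0.17 ± 0.30 (adjusted p = 0.121). The 3 lactogen promoters are near copies, with 3 probes each, and are not independent. Their calls also rest on single arrays: without replicate 3 the adjusted p was 0.0522 for Prl3d1 and 0.0854 for Prl3d2. Prl7a1 ran from −0.38 to −0.02 with a median of −0.12 (mean −0.17 ± 0.12; adjusted p = 0.0058). Prl2a1 was at −0.10 ± 0.20 with 6 of 7 arrays below 0 (adjusted p = 0.182).

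Members with RNA above background in TKO on at most 1 array had ratios of a similar range. Prl8a8 ran from −0.86 to −0.13 with a median of −0.30 (adjusted p = 0.000962), Prl8a9 from −0.68 to 0.01 with a median of −0.45 (0.000594), and Prl8a1 from −0.71 to −0.07 with a median of −0.24 (0.00461). Prl8a6 ran from −0.53 to 0.01 with a median of −0.13 (0.00904). Prl2b1 ran from −0.72 to −0.19 with a median of −0.28 (0.000411), Prl3a1 from −0.52 to −0.21 with a median of −0.35 (6.63e-05), and Prl7a2 from −0.75 to −0.02 with a median of −0.35 (0.00124). Prl5a1 ran from −0.93 to −0.24 with a median of −0.31 (0.000617). Prl itself ran from −0.27 to 0.08 with a median of −0.12 and was just past the threshold (0.0493), which it missed without replicate 7 (0.149). Prl8a2 (−0.09 ± 0.20, adjusted p = 0.23) and Prl3c1 (0.01 ± 0.28, 0.914) did not pass.

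**Figure D3:**
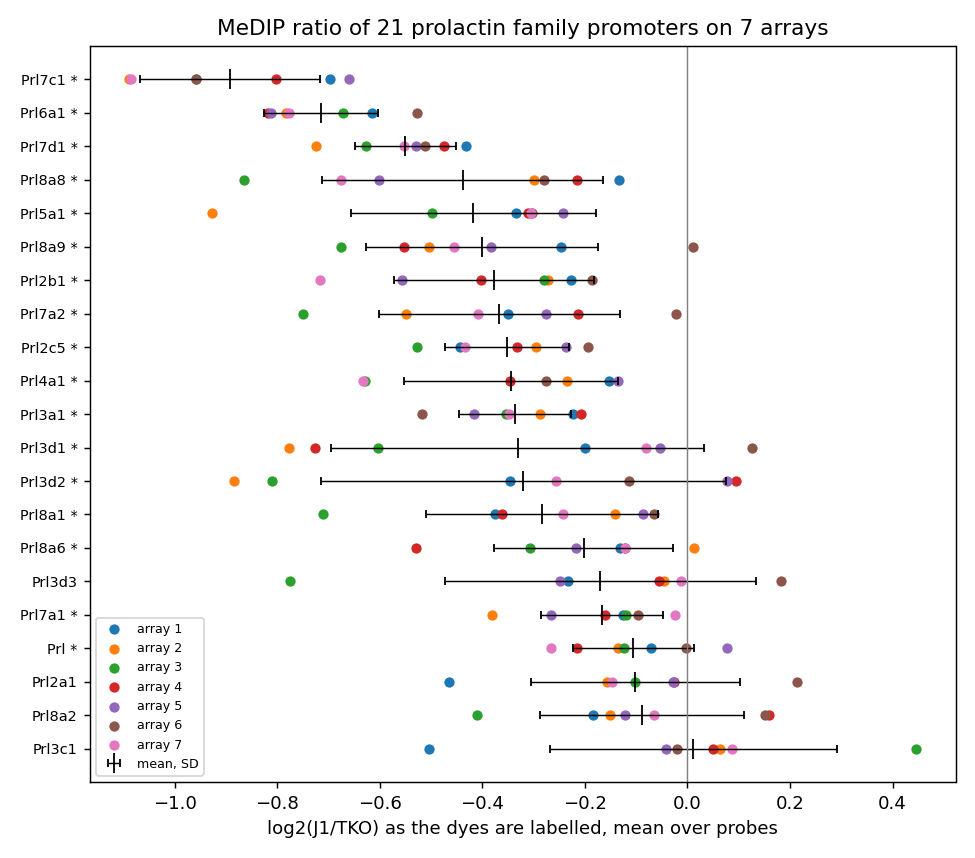
Log2(J1/TKO) as the dyes are labelled (horizontal axis) for the 21 family promoters, with a point for each of the 7 arrays, a tick for the mean, a bar for 1 SD and a star at promoters with an adjusted p under 0.05. Prl7c1, Prl6a1 and Prl7d1 lie wholly below −0.4, and Prl3c1 straddles 0.

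The 7 promoters of genes with TKO RNA above background on 2 or more arrays had a median ratio of −0.33, from −0.55 to −0.10, and 6 of them passed. The 13 promoters of genes with TKO RNA above background on at most 1 array had a median of −0.37, from −0.89 to 0.01, and 11 passed. The first group lay within the range of the second, which also held the lowest values, those of Prl7c1 and Prl6a1.

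Within promoters the ratio varied with position. At Prl7d1 the probe 211 bp before the start was at −1.31 ± 0.35 (SD, n = 7), and the probes at −491 and 69 bp were at −0.80 ± 0.25 and −0.69 ± 0.15. The outermost probes, at −1050 and 349 bp, were at −0.28 ± 0.26 and −0.10 ± 0.26. At Prl4a1 the lowest probe was likewise the nearest one before the start, at −162 bp (−0.82 ± 0.37), with 0.01 ± 0.33 at 225 bp. Among the probes named for Prl2c5, whose copy is uncertain, the lowest probe was at −474 bp (−0.63 ± 0.19, n = 6), and the probe at 366 bp was at 0.02 ± 0.25. At Prl6a1 it was at −15 bp (−1.04 ± 0.39), at Prl8a8 at −149 bp (−0.98 ± 0.36) and at Prl7a2 at −130 bp (−0.90 ± 0.16). The lactogens Prl3d1, Prl3d2 and Prl3d3 had theirs after the start, with −1.003 ± 0.69 at 331 bp in Prl3d1, −0.74 ± 0.49 at 245 bp in Prl3d2 and −0.61 ± 0.33 at 242 bp in Prl3d3. These lactogen probes were above background in both channels on 3, 5 and 7 of the 7 arrays. The Prl7c1 probes showed no such dip and ranged from −1.09 ± 0.24 at −880 bp to −0.72 ± 0.20 at 258 bp.

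**Figure D4:**
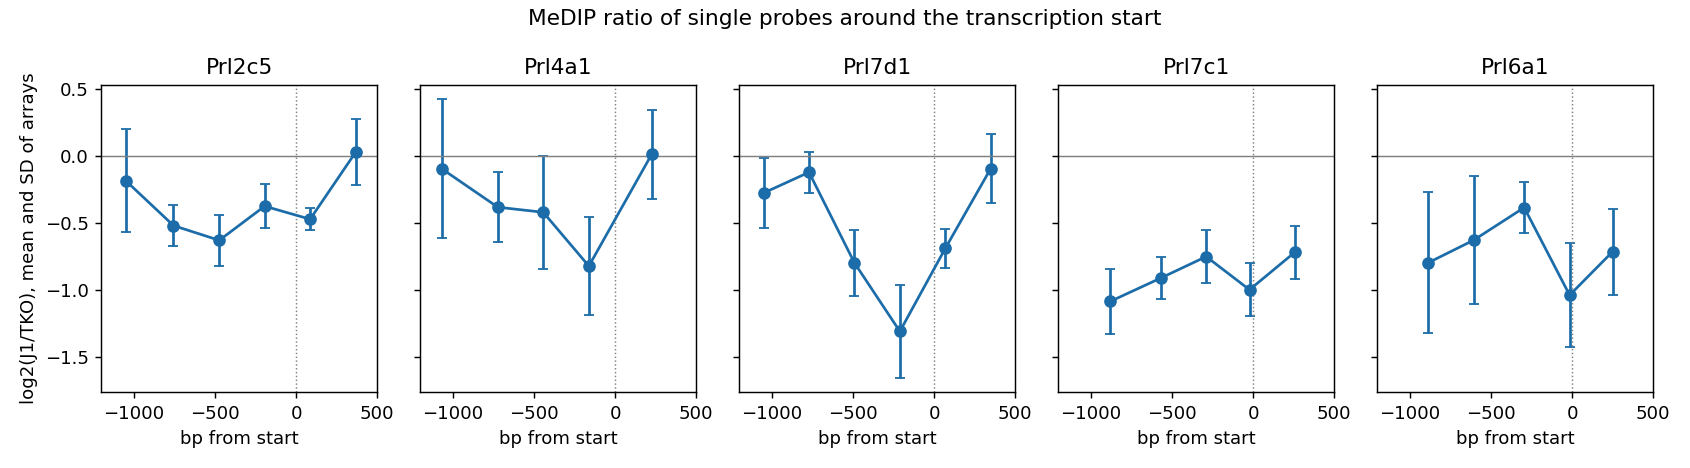
Mean log2(J1/TKO) of each probe over arrays, with SD bars, against its distance in bp from the transcription start as the array annotation gives it, for 5 promoters. Prl7d1 reaches −1.31 at −211 bp and returns towards 0 on both sides, whereas all Prl7c1 probes lie between −1.09 and −0.72. Which proliferin copy the probes named for Prl2c5 tile is uncertain.

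Among the 21 promoters the lowest probe was the nearest one before the start in 7, lay farther before it in 7, as at Prl2b1 (−1085 bp, −0.92 ± 0.58), and lay after it in 7, so no place was shared by most of the family. That Prl2b1 probe was above background in both channels on 1 of 7 arrays. Over all 112 family probes, 94 had a mean below 0 and 38 lay below 0 on all 7 arrays, while 2, at Prl (−106 bp, 0.23 ± 0.16) and Prl8a6, lay above 0 on all 7. The median was −0.34 for the 45 probes within 300 bp of a start and −0.21 for the 67 farther away. The 7 probes outside a tested promoter lay between −4814 and −2943 bp from the starts of Prl3d1, Prl3d2, Prl3d3 and Prl8a6. Their means ran from −0.51 to 0.40, and the highest was the Prl8a6 probe at −2943 bp (0.40 ± 0.20, above 0 on 7 of 7 arrays).

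Base composition and brightness differed between the family and other promoters. Among 2633 promoters of other genes with no more CpG than the richest family member (5 in the 300-base window), 56.3% were on the labelled TKO side at an adjusted p under 0.05, with a median ratio of −0.14. Among 8531 with more CpG the share was 22.5% and the median 0.03. The family was also dim. Of its 21 promoters, 19 lay in the dimmest of 5 equal classes of part 2 promoters by signal. In that class 55.1% of other promoters were on that side with a median of −0.16. Under normexp the share in that class was 0.906% and the median 0.11. The 2 family promoters outside it were Prl7c1, at the percentile 34.6, and Prl7d1, at 27.3, which were also the 2 that passed under normexp. In their class 7.23% of other promoters passed on that side under normexp. The part of composition and of brightness in the family's ratios was not tested.

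**Figure D5:**
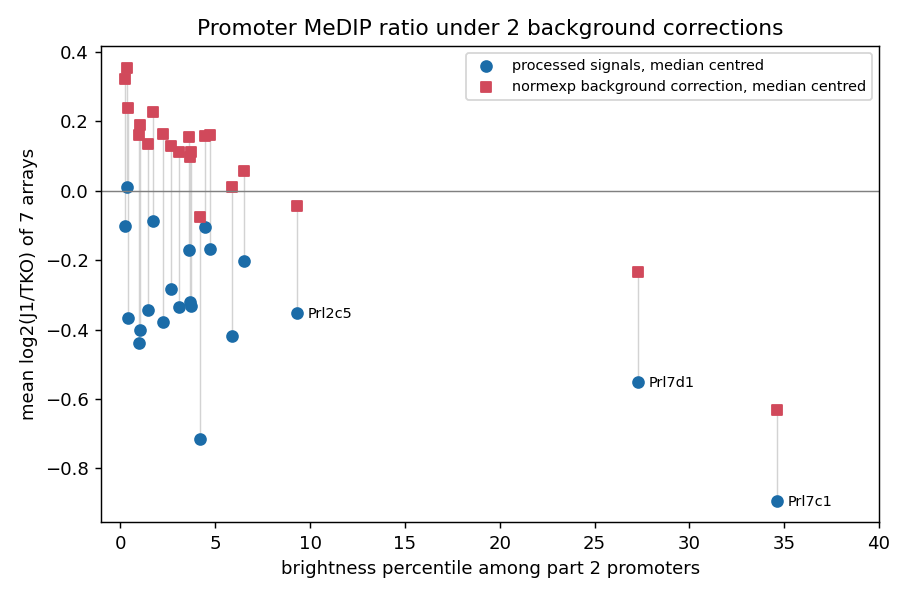
Mean log2(J1/TKO) of the 21 family promoters (vertical axis) against their brightness percentile among part 2 promoters, for processed signals (circles) and after normexp (squares), with a line joining the values of 1 promoter. Most dim promoters move across 0 between the corrections, while Prl7d1 (−0.55 and −0.23) and Prl7c1 (−0.89 and −0.63) stay below it. The normexp means include replicate 5, on which the family median was 1.03.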

How the data were processed

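The members and lists were chosen with earlier results of these data known. The deposited scanner files hold intensity values. Per the submitters' processing notes the scanner software was Feature Extraction 8.5 of Agilent, and the headers of 2 expression arrays name an earlier release. Values were background-subtracted and dye-normalised in their processed signals, per the file headers. The authors' deposited expression table and the scanner ratios are in log10 units, and the table is the mean of the 3 arrays. Neither the genome build of the probes nor probe sequences are given in the sources used here, so array positions are not printed.

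From the scanner files, expression ratios were computed from mean signals (normexp with offset 50, loess, control spots at weight 0). MeDIP ratios came from processed signals, median centred, without loess. Spots marked uneven were left out, spots of 1 probe were averaged, and limma 3.58.1 (R 4.3.3) with Benjamini-Hochberg adjustment gave all adjusted p-values. The number of arrays limits the precision. Each fit was tested on simulated data in which 200 features had been changed. Probes were named through RefSeq accessions (22207 of 41174 expression probes) or else by a current symbol in the file (6192). The promoter windows were aligned pairwise over their whole length.

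Values by array are given for the 3 chosen members, for members well above background on all expression arrays and for promoters past the adjusted p. The 3 nearest genes and up to 4 list members with the largest change among those past the adjusted p are named. Alternatives were other background corrections and centrings, a dye term, filters, the slide code as a block, the deposited mean and leaving out arrays. Those on uneven spots, and normexp without its widest array, were chosen after seeing the data.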

Additional observations from a re-analysis of the deposited data

Results flagged for a closer look

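At the Prl5a1 promoter, replicate 2 stood apart from the other arrays with a log2(J1/TKO) of −0.93, against −0.50 to −0.24 on the other 6. It lay on the same side of 0 as the rest. Of the 21 family promoters this was the 1 with an array so far from its neighbours, and chance alone marks about 1 in 20 groups.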

How the results depend on the processing

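The median expression ratio of the 6 family probes that passed the filter, 1.93, was 4.40 with Agilent's processed signals, 4.28 in the authors' deposited table, 0.068 over all 27 probes without the filter and 2.14 when the filter was read over even spots only; it ran from 1.78 to 1.86 with an array left out. The number of probes past 2-fold, 6, stayed between 4 and 9 under all alternatives run. The slide code as a block could not be fitted to 3 expression arrays, nor to part 1, which kept its fit without the block. The median MeDIP ratio turned from −0.34 to 0.13 under normexp, with 2 in place of 17 promoters past the adjusted p, and to −0.029 with 4 promoters when replicate 5, whose promoters spread most under normexp, was also left out. With the sign turned it was 0.34, with 0 promoters on the labelled TKO side. Under mode centring, medians over probes, only probes well above background in both channels, the slide block and arrays left out, between 14 and 19 promoters passed. Under normexp the ratio was above 0 at Prl (0.16), Prl2a1 (0.32), Prl2b1 (0.16), Prl3a1 (0.11), Prl3d1 (0.11), Prl3d2 (0.10), Prl3d3 (0.15), Prl4a1 (0.13), Prl5a1 (0.0102), Prl7a1 (0.16), Prl7a2 (0.24), Prl8a1 (0.13), Prl8a2 (0.23), Prl8a6 (0.058), Prl8a8 (0.16) and Prl8a9 (0.19). Prl3c1, at 0.01, was at −0.027 under mode centring, −0.011 with those well above background, and −0.061 to 0.098 with an array left out. Prl and Prl3d2 also missed with medians over probes (adjusted p = 0.33 and 0.08), and Prl2a1 passed with only probes above background (0.0185). Without replicate 6, Prl2a1 (0.0356) and Prl3d3 (0.0454) passed. The calls of Prl, Prl3d1 and Prl3d2 were lost when some single arrays were left out: replicate 1, 2, 3, 4 or 7 for Prl (adjusted p from 0.0688 to 0.149), replicate 2, 3 or 4 for Prl3d1 (0.0522 to 0.0612) and replicate 1, 2, 3 or 7 for Prl3d2 (0.0505 to 0.0854). The cause of these changes was not tested. No paired analysis was possible because the replicate numbers are shared only between parts 1 and 2, which hold different promoters; the lines themselves are already compared within each array. Low signal limits the family: 60 of its 112 promoter probes were above background in both channels on all 7 arrays.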
